A study of Mus musculus with 12 samples.

Results

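The genes described here are 10 core genes of the Notch pathway: the receptors Notch1, Notch2, Notch3 and Notch4, the ligands Jag1 and Jag2, and the transcriptional targets Hey1, Hey2, Heyl and Hes1. They were chosen by symbol as core pathway genes, with earlier results of these data known. All 10 had a row in the table of 33352 genes, and all 10 passed the filter on low counts that left 19016 genes for testing. They were followed across 4 populations that had been isolated by flow cytometry. The tissue was the aorta with its perivascular fat, the adipose tissue around the vessel, of wild-type male mice of the outbred CD-1 strain, 13 weeks old. The labels name SMC2 and SMC1 as smooth muscle cell populations, Intermediate as perivascular intermediate cells and Progenitor as perivascular progenitor cells. Each population had 3 libraries of poly(A) RNA, 12 in all. The antibodies and gates of the sort are not given in the sources used here, nor whether a library came from 1 animal or from pooled animals.

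Notch receptors are membrane proteins that are activated by ligands on a neighbouring cell. Ligand binding lets ADAM proteases and then gamma-secretase cut the receptor, and the freed intracellular part enters the nucleus, where it joins the DNA-binding protein RBPJ and a Mastermind coactivator. The best-known genes switched on this way are the Hes and Hey genes, which encode basic helix-loop-helix repressors. In arteries, Notch3 is known as the main receptor of smooth muscle cells, Jag1 as a ligand made by endothelial and smooth muscle cells, and Heyl and Hey2 as targets in the vessel wall. The libraries measured mRNA; cleaved receptor was not measured.

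Library totals ran from 13258631 to 22647175 counts. The defining markers separated the SMC populations from Intermediate and Progenitor. The summed level of 8 smooth muscle markers, in CPM (counts scaled to library size), was 21896 to 30881 in SMC2 and 31794 to 37950 in SMC1, against 552 to 697 in Intermediate and 239.5 to 576 in Progenitor. The 10 fibroblast and progenitor markers summed to 736 to 1482 CPM in SMC2 and 3276 to 5486 in SMC1, against 57964 to 70451 in Intermediate and 63162 to 70279.6 in Progenitor. Endothelial cells also express Notch receptors and Jagged ligands, and 14 endothelial markers summed to 504 to 575 CPM in SMC2, 449 to 634 in SMC1, 144 to 213 in Intermediate and 202 to 288 in Progenitor. None of the 14 was at 0. Esam, which smooth muscle and pericytes can also express, made up 390.4 of the mean of 538 CPM in SMC2, while the endothelial junction gene Cdh5 averaged 2.18 CPM in SMC2, 8.02 in SMC1, 1.89 in Intermediate and 2.92 in Progenitor. The summed level of 8 pericyte markers was 1805 to 2298 CPM in SMC2, 3488 to 4288 in SMC1, 1234 to 1275 in Intermediate and 435 to 811 in Progenitor. For 8 leukocyte markers the sums were 102 to 231, 121 to 566, 89.0 to 121 and 116 to 153 CPM in SMC2, SMC1, Intermediate and Progenitor, for 8 mesothelial markers 15.4 to 39.1, 36.6 to 69.2, 171 to 409 and 39.2 to 67.1, and for 6 glial and neuronal markers 52.6 to 106, 18.5 to 32.7, 15.3 to 16.5 and 19.9 to 22.1. The part of any of these lists in the Notch results was not tested.

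The Notch genes were mostly highest in the smooth muscle populations, but not in a single pattern. SMC2 had the highest mean of Notch1, Notch3, Jag1, Hey1, Hey2 and Hes1. SMC1 had the highest mean of Notch2, Notch4, Jag2 and Heyl. Progenitor had the lowest mean of Jag1, Jag2, Hey1, Hey2, Heyl and Hes1, and Intermediate the lowest of Notch1 and Notch3. The lowest means of Notch2 and Notch4 were in SMC2, for Notch2 nearly level with Progenitor (46.27 and 46.30 CPM). A gene was called changed when the adjusted p was below 0.05, with edgeR's quasi-likelihood test and the Benjamini-Hochberg method over all genes tested. For any difference among the 4 populations, 9 of the 10 genes were called, against 66.2% of all genes, and the gene not called was Notch4 (adjusted p = 0.0828). This number was 10 without the filter on low counts and 8 to 10 with 1 library left out. Because the libraries are bulk samples, fewer cells of a type and less RNA per cell cannot be told apart.

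**Figure D1:**
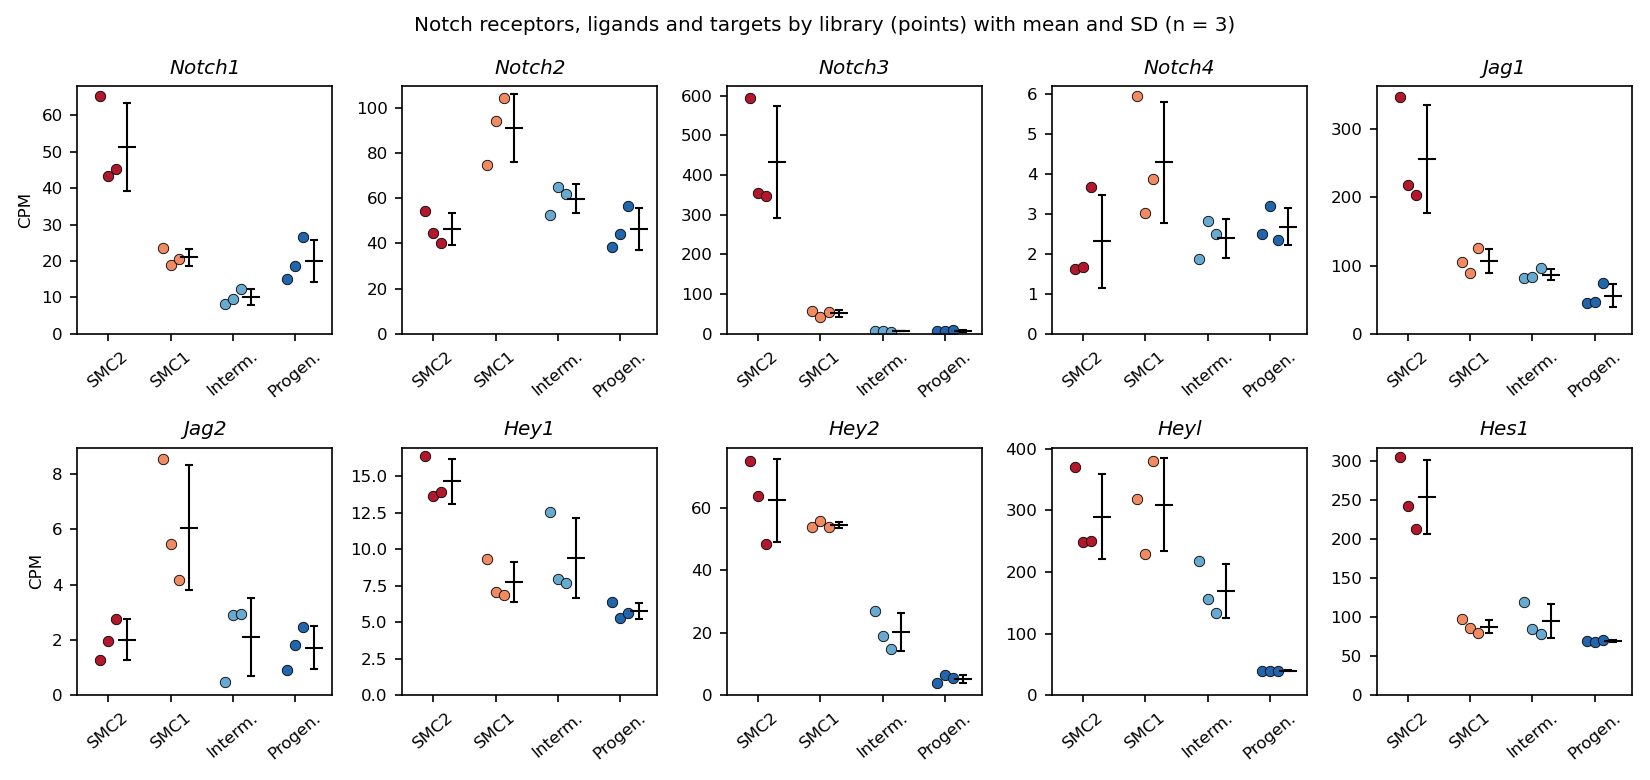
Level of each Notch gene in CPM (vertical axes, each starting at 0) in every library of SMC2, SMC1, Intermediate and Progenitor. Points are libraries and the bars give the mean and SD of 3 libraries. Notch3 stands at 348 to 595 CPM in SMC2 and at or below 58.1 CPM in the other populations, while Hey2 and Heyl are high in both SMC populations, lower in Intermediate and lowest in Progenitor.

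In SMC2 minus Progenitor, 7 of the 10 genes were called, all higher in SMC2, where 44.8% of all genes were called, 23.1% higher and 21.7% lower. Their median log2 change was 1.61, against 0.06 over all genes. The comparison SMC1 minus Progenitor called 6 genes, all higher, beside a background of 48.3% called, 25.3% higher and 23.1% lower, with medians of 0.96 and -0.0049. Between Intermediate and Progenitor, 5 genes were called, 4 higher and 1 lower, where 22.2% of all genes were called, 12.7% higher and 9.46% lower, with medians of 0.40 and 0.08. SMC2 minus Intermediate called 7 genes, all higher, against 44.6% of all genes called, 21.4% higher and 23.2% lower, with medians of 1.10 and 0.04. SMC1 minus Intermediate called 6, all higher, against 41.6% called, 19.7% higher and 21.9% lower, with medians of 0.85 and 0.0022. In SMC2 minus SMC1, 5 genes were higher and 2 lower, against 34.6% of all genes called, 16.5% higher and 18.1% lower, with medians of 0.56 and -0.0028. The comparisons share libraries, so they are not independent of each other. Replicates carry the numbers 1 to 3 in the labels, but no label says that a number marks an animal. The p-values therefore rest on the spread among libraries, part of which may be technical.

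**Figure D2:**
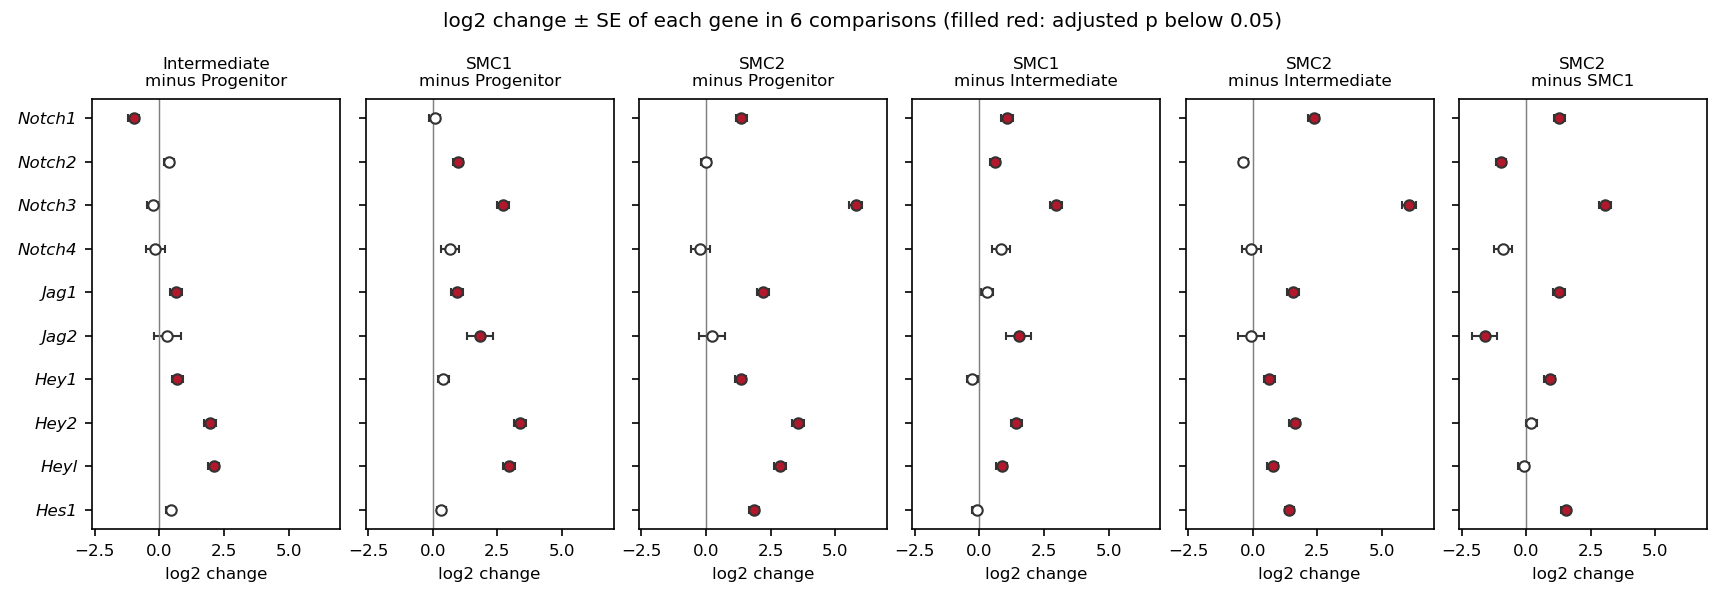
log2 change with its standard error (horizontal axes) of each Notch gene in the 6 comparisons. Filled red points have an adjusted p below 0.05. Notch3 has the largest change in the panels of SMC2 over Progenitor (5.78) and over Intermediate (6.03), and Notch1 is the 1 gene called lower in Intermediate than in Progenitor.

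Notch3 (ENSMUSG00000038146, chr17:32120820-32166852 in GRCm38, minus strand) differed most. Its level was 595, 353 and 348 CPM in SMC2 replicates 1 to 3, and 58.1, 41.4 and 55.4 CPM in SMC1. Intermediate had 6.71, 7.22 and 5.81 CPM, and Progenitor 6.61, 6.73 and 10.2 CPM. Every SMC2 library was above every SMC1 library, and every SMC1 library above those of the other populations, while the Intermediate and Progenitor ranges overlapped. The means were 432 ± 141 CPM in SMC2, 51.6 ± 8.97 in SMC1, 6.58 ± 0.713 in Intermediate and 7.86 ± 2.06 in Progenitor (SD, n = 3 each). SMC2 was 8.37-fold above SMC1 (log2 change 3.07 ± 0.23 SE, adjusted p = 3.5e-09 in edgeR's quasi-likelihood test), 65.5-fold above Intermediate (6.03 ± 0.27, 5.25e-13) and 55.1-fold above Progenitor (5.78 ± 0.27, 7.3e-13). SMC1 was above Intermediate (log2 change 2.97 ± 0.24, adjusted p = 3.34e-09) and Progenitor (2.72 ± 0.24, 7.84e-09). Intermediate and Progenitor were not separated (-0.25 ± 0.24, adjusted p = 0.499). Of the exon bases of Notch3, 6.03% lie in a gene model of the opposite strand, whose reads cannot be told apart in these libraries.

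Notch1, a receptor best known in this tissue from endothelial cells (ENSMUSG00000026923, chr2:26457903-26516663), had a different order. SMC2 libraries held 65.2, 43.4 and 45.4 CPM and SMC1 libraries 23.6, 18.9 and 20.5 CPM. Intermediate libraries held 8.08, 9.67 and 12.4 CPM and Progenitor libraries 15.1, 18.6 and 26.5 CPM. SMC2 was above all other libraries, SMC1 and Progenitor overlapped, and the Intermediate libraries were all below them. Intermediate was the lowest population for this gene, at a log2 change of -0.99 ± 0.22 from Progenitor (adjusted p = 0.00279). SMC2 was above SMC1 by 1.29 ± 0.21 (adjusted p = 7.19e-05), above Intermediate by 2.35 ± 0.23 (2.5e-08) and above Progenitor by 1.36 ± 0.22 (2.4e-05). SMC1 was above Intermediate by 1.06 ± 0.22 (adjusted p = 0.000588), and SMC1 minus Progenitor was 0.07 with an adjusted p of 0.808. The 14 endothelial markers summed to 538 ± 35.7 CPM in SMC2 and 525 ± 96.7 CPM in SMC1 (SD, n = 3 each). Of them, 12 had a lower mean in SMC2 than in SMC1, and 2 a higher mean: Esam (390.4 CPM in SMC2, 79.1 CPM in SMC1) and Sox18 (8.32 CPM in SMC2, 4.70 CPM in SMC1). Of the 12, 8 were lower in every SMC2 library and 4 overlapped. Over all genes, 34.6% were called in SMC2 minus SMC1, 18.1% lower, and the share without overlap is not given here. The part of the 14 endothelial markers in the Notch1 values was not tested. Of the exon bases of Notch1, 9.76% overlap gene models of the opposite strand.

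Notch2 (ENSMUSG00000027878, chr3:98013527-98150361, 5.02% of its exon bases shared with another gene model) had its highest level in SMC1. It had 54.1, 44.6 and 40.2 CPM in SMC2 and 74.6, 93.9 and 104 CPM in SMC1. Intermediate had 52.5, 65.1 and 61.8 CPM and Progenitor 38.3, 44.3 and 56.3 CPM. The SMC1 libraries were all above the others, and the other populations overlapped. SMC2 fell to 46.3 ± 7.09 CPM, against 91.0 ± 15.1 CPM in SMC1 (SD, n = 3 each), a log2 change of -0.97 ± 0.18 (adjusted p = 0.000223). SMC1 was above Progenitor by 0.98 ± 0.18 (adjusted p = 0.000144) and above Intermediate by 0.60 ± 0.18 (0.00982). The SMC1 call over Intermediate was lost without SMC1 replicate 3 (adjusted p = 0.0503) and without Intermediate replicate 1 (0.0533). The remaining pairs were not separated, with adjusted p of 0.103 for SMC2 minus Intermediate, 0.997 for SMC2 minus Progenitor and 0.151 for Intermediate minus Progenitor.

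Notch4, known chiefly as an endothelial receptor (chr17:34564268-34588503), was low in all populations. It had 1.61, 1.68 and 3.66 CPM in SMC2 and 5.96, 3.03 and 3.87 CPM in SMC1. Intermediate had 1.86, 2.83 and 2.49 CPM and Progenitor 2.51, 3.20 and 2.34 CPM. The ranges of all populations overlapped with that of at least 1 other, and no pair was called. The lowest adjusted p was 0.0559, for SMC2 minus SMC1 at a log2 change of -0.90, and it was 0.022 when no filter on low counts was used. The SMC1 library with the highest Notch4, replicate 1, also had the highest endothelial sum, 634 CPM, and the highest leukocyte sum, 566 CPM. Of the SMC1 libraries it also had the highest fibroblast and progenitor (5486 CPM), mesothelial (69.2) and glial and neuronal (32.7) sums. Its pericyte sum (3488 CPM) was the lowest of them. The part of these cell types in the Notch4 level was not tested.

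Per length of exon, the makeup of receptor mRNA differed between the populations. The summed receptor level was 61.6 ± 18.8 CPM per kilobase in SMC2, 16.8 ± 1.49 in SMC1, 7.36 ± 0.767 in Intermediate and 7.01 ± 1.48 in Progenitor (SD, n = 3 each). Notch3 gave 85.4 to 88.2% of it in SMC2 libraries, 32.9 to 43.5% in SMC1, 9.42 to 12.8% in Intermediate and 12.5 to 14.6% in Progenitor. Notch2 was the most abundant receptor mRNA in the other populations, at a mean share of 50.2% in SMC1, 75.3% in Intermediate and 61.4% in Progenitor, against 7.17% in SMC2. The share of Notch1 was 5.93% in SMC2, 8.81% in SMC1, 9.56% in Intermediate and 19.9% in Progenitor, with the Progenitor libraries all above the rest. Notch4 stayed at a mean of 4.92% or less in every population. In SMC1 replicate 1 Notch3 had a slightly larger share than Notch2, 43.5% against 41.9%. These shares are descriptions of each library and carry no test. They depend on the exon lengths used, which take in the exons of all annotated transcripts of a gene.

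**Figure D3:**
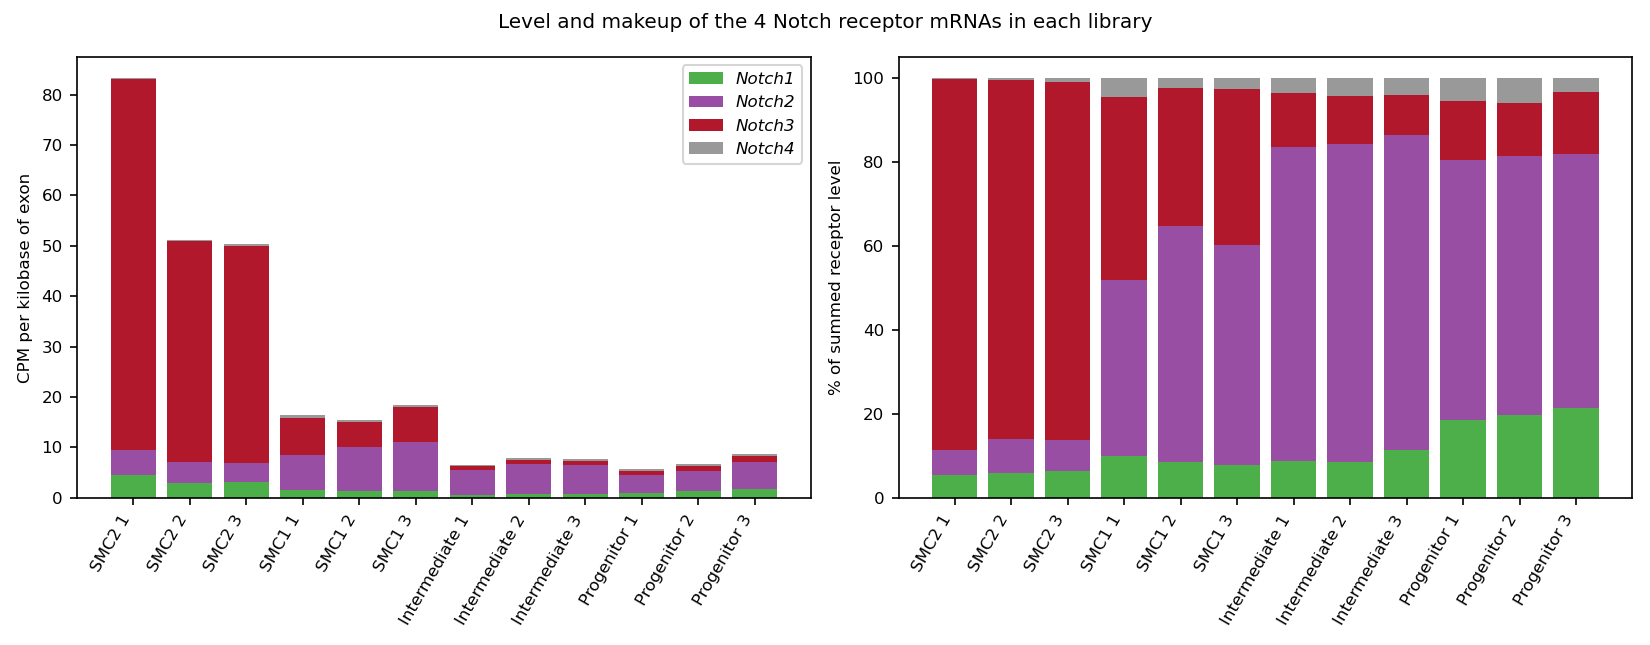
Summed level of the 4 receptor mRNAs in CPM per kilobase of exon (left axis) and the share of each receptor in that sum in percent (right axis), 1 stacked bar per library. Notch3 fills 85.4 to 88.2% of the bars of SMC2, and Notch2 74.9 to 75.9% of those of Intermediate and 60.5 to 61.8% of those of Progenitor.

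Of the ligands, Jag1 (chr2:137081456-137116644) was the main one in every population. Its libraries had 347, 217 and 203 CPM in SMC2 and 105, 89.2 and 126 CPM in SMC1. Intermediate had 81.2, 82.6 and 96.6 CPM and Progenitor 44.8, 46.7 and 74.9 CPM. SMC2 was above all other libraries, SMC1 and Intermediate overlapped, and the Progenitor libraries were below all of them. SMC2 was above SMC1 by a log2 change of 1.264 ± 0.22 (adjusted p = 0.000167), above Intermediate by 1.56 ± 0.23 (9.45e-06) and above Progenitor by 2.21 ± 0.23 (1.3e-07). SMC1 was above Progenitor by 0.94 ± 0.22 (adjusted p = 0.00173) and was not separated from Intermediate (0.308). Intermediate exceeded Progenitor by 0.65 ± 0.22 with an adjusted p of 0.0441. That call was lost when any 1 library other than SMC2 replicate 1 and Progenitor replicate 3 was left out (10 of 12 libraries, adjusted p 0.0635 to 0.165), with other scaling factors (0.0707 and 0.0924) and in DESeq2 (0.051).

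Jag2 (chr12:112907819-112929776) showed the opposite order of the SMC populations at a far lower level. It had 1.29, 1.98 and 2.76 CPM in SMC2 and 8.55, 5.46 and 4.16 CPM in SMC1. Intermediate had 0.497, 2.89 and 2.94 CPM and Progenitor 0.911, 1.80 and 2.46 CPM. All SMC1 libraries were above all others, which overlapped. SMC2 minus SMC1 was -1.60 ± 0.49 (adjusted p = 0.0158), SMC1 minus Intermediate 1.52 ± 0.49 (0.0182) and SMC1 minus Progenitor 1.83 ± 0.50 (0.00538). SMC1 replicate 1 had the highest endothelial, leukocyte, fibroblast and progenitor, mesothelial, and glial and neuronal sums of the SMC1 libraries. It had the lowest pericyte sum of them. The part of these cell types in the Jag2 values was not tested. Without SMC1 replicate 1, the adjusted p was 0.0637 against SMC2 and 0.0751 against Intermediate. The calls were also lost without SMC2 replicate 1 (0.0501, SMC2 minus SMC1) and without Intermediate replicate 1 (0.0525, SMC1 minus Intermediate). Per kilobase of exon, Jag1 made up 99.3% of the summed Jagged level in SMC2, 95.4% in SMC1, 98.1% in Intermediate and 97.5% in Progenitor.

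The 4 targets fell into a pair that was called higher in SMC2 than in SMC1 and a pair that was not. Hey2 and Heyl had no called difference between the SMC populations, were lower in Intermediate and were lowest in Progenitor. Hes1 and Hey1 were highest in SMC2, and neither separated SMC1 from Intermediate or from Progenitor. All 4 were called higher in SMC2 than in Intermediate and than in Progenitor.

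Hey2 (chr10:30832359-30842801) had 75.0, 63.8 and 48.5 CPM in SMC2 and 54.0, 55.6 and 53.9 CPM in SMC1. Intermediate had 27.0, 19.0 and 14.9 CPM and Progenitor 3.96, 6.53 and 5.50 CPM. The SMC populations overlapped, the Intermediate libraries were all below them, and the Progenitor libraries were lower still. The change over Progenitor was 3.56 ± 0.24 in SMC2 (adjusted p = 1.39e-10), 3.37 ± 0.24 in SMC1 (3.08e-10) and 1.94 ± 0.23 in Intermediate (5.04e-06). Over Intermediate it was 1.62 ± 0.21 in SMC2 (2.59e-06) and 1.42 ± 0.21 in SMC1 (1.7e-05). SMC2 minus SMC1 was 0.20 ± 0.21 (adjusted p = 0.491).

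Heyl (chr4:123233556-123249875) had 369.9, 249 and 251 CPM in SMC2 and 318, 229.9 and 379.9 CPM in SMC1. Intermediate had 218, 156 and 134 CPM and Progenitor 38.7, 40.1 and 40.1 CPM. The Intermediate libraries lay between the SMC libraries and the Progenitor libraries without overlap. The log2 change over Progenitor was 2.87 ± 0.23 in SMC2 (adjusted p = 1.6e-09), 2.96 ± 0.23 in SMC1 (1.09e-09) and 2.10 ± 0.22 in Intermediate (1.16e-06). Over Intermediate it was 0.78 ± 0.21 in SMC2 (0.00538) and 0.87 ± 0.21 in SMC1 (0.00255), and SMC2 minus SMC1 was -0.09 ± 0.21 (adjusted p = 0.765). The summed 8 smooth muscle markers had a mean of 604 CPM in Intermediate (552 to 697) and 451 CPM in Progenitor (239.5 to 576), ranges that overlap at their edges. Of these markers, 6 overlapped between the populations, while Smtn (133 to 155 CPM in Intermediate, 56.5 to 91.7 CPM in Progenitor) and Mylk (25.5 to 35.8 CPM in Intermediate, 11.9 to 21.4 CPM in Progenitor) were higher in every Intermediate library. Over all genes, 12.7% were called higher in Intermediate than in Progenitor, and the share without overlap is not given here. The pericyte sums (1234 to 1275 and 435 to 811 CPM) and the mesothelial sums (171 to 409 and 39.2 to 67.1 CPM) were also higher in every Intermediate library. The pericyte sums differed through Pdgfrb (means of 636 CPM in Intermediate, 304 in Progenitor), Abcc9 (331 and 102) and Kcnj8 (179 and 66.5). Rgs5, Cspg4 and Mcam had similar means, and Higd1b (0.251 and 0.962) and Anpep (58.4 and 66.2) had lower means in Intermediate. Of the mesothelial markers, Wt1 had a lower mean in Intermediate (5.70 and 17.9). The part of these cell types in the Hey2 and Heyl values was not tested.

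**Figure D4:**
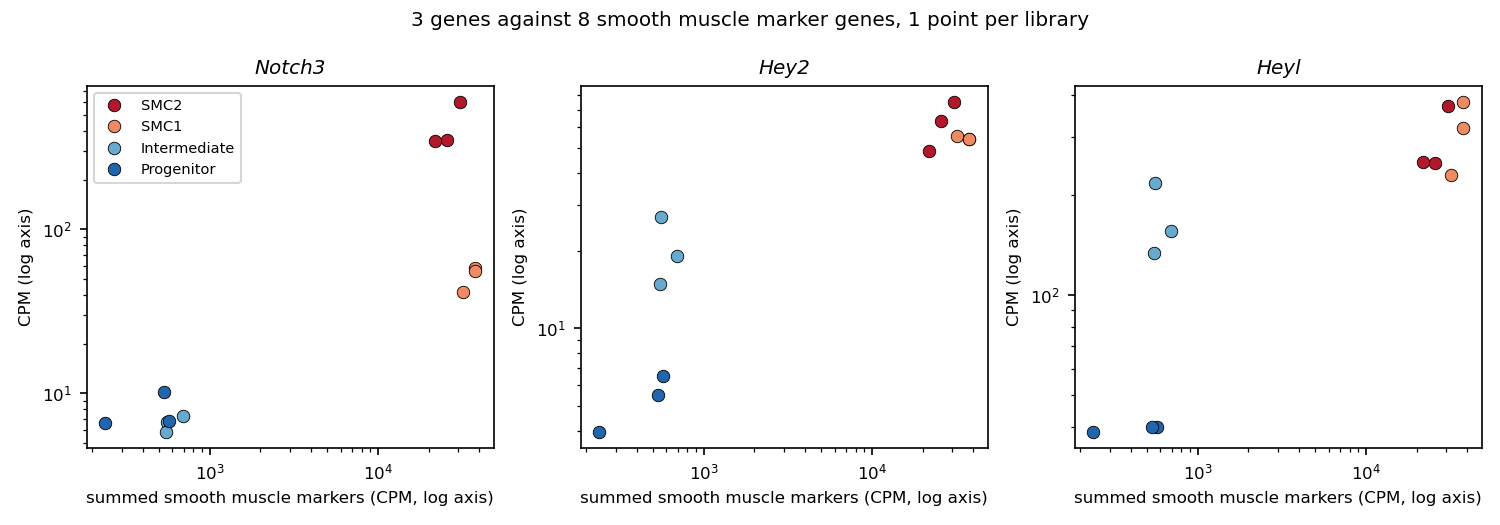
Notch3, Hey2 and Heyl in CPM (vertical log axes) against the summed CPM of 8 smooth muscle markers (horizontal log axis), 1 point per library. Intermediate has 14.9 to 27.0 CPM of Hey2 at marker sums of 552 to 697 CPM and Progenitor 3.96 to 6.53 CPM at sums of 239.5 to 576 CPM, while SMC2 and SMC1 differ in Notch3 (348 to 595 and 41.4 to 58.1 CPM) and overlap in Hey2 and Heyl.

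Hes1, a target of Notch that other signals also drive (chr16:30064384-30067796), had 305, 242 and 212 CPM in SMC2 and 97.3, 86.3 and 80.01 CPM in SMC1. Intermediate had 119.6, 85.3 and 78.9 CPM and Progenitor 70.0, 68.7 and 70.7 CPM. SMC2 was above every other library, SMC1 and Intermediate overlapped, and the Progenitor libraries were lowest. SMC2 was above SMC1 by 1.53 ± 0.18 (adjusted p = 1.25e-06), above Intermediate by 1.42 ± 0.18 (1.49e-06) and above Progenitor by 1.86 ± 0.18 (4.07e-08). Among the other populations no pair was called, with adjusted p of 0.675 for SMC1 minus Intermediate, 0.135 for SMC1 minus Progenitor and 0.0886 for Intermediate minus Progenitor.

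Hey1 (chr3:8663359-8667256) was the least abundant target per kilobase of exon in SMC2, SMC1 and Intermediate. In Progenitor it was above Hey2 (means of 1.77 and 1.16 CPM per kilobase). Hey1 had 16.4, 13.6 and 13.9 CPM in SMC2 and 9.31, 7.09 and 6.85 CPM in SMC1. Intermediate had 12.6, 7.98 and 7.73 CPM and Progenitor 6.43, 5.33 and 5.62 CPM. SMC2 was above the others, SMC1 and Intermediate overlapped, and Progenitor was below both. SMC2 was above SMC1 by 0.92 ± 0.22 (adjusted p = 0.00219), above Intermediate by 0.64 ± 0.22 (0.0201) and above Progenitor by 1.34 ± 0.22 (3.91e-05). Intermediate exceeded Progenitor by 0.70 ± 0.22 (adjusted p = 0.0295), a call lost when any 1 library other than Intermediate replicates 2 and 3 and Progenitor replicate 1 was left out (9 of 12 libraries, 0.0618 to 0.21), and the change was 0.45 without Intermediate replicate 1. The call of SMC2 over Intermediate was lost without SMC2 replicate 1, Intermediate replicate 2 or Intermediate replicate 3 (adjusted p 0.0818 to 0.127). SMC1 was separated neither from Intermediate (0.328) nor from Progenitor (0.13).

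Replicate 1 held the highest value of Hey1, Hey2, Heyl and Hes1 within both SMC2 and Intermediate. Per kilobase of exon, the 4 targets summed to 199 CPM in SMC2, 118 in SMC1, 86.8 in Intermediate and 45.0 in Progenitor. Hes1 gave 62.5% of this sum in SMC2, 37.0% in SMC1, 53.6% in Intermediate and 76.2% in Progenitor. Heyl gave 28.4%, 50.8%, 38.1% and 17.2% in the same populations, so that Heyl was the most abundant target mRNA in SMC1 and Hes1 in the other 3. Over the 12 libraries the log2 CPM of Hey2 followed that of Heyl (Pearson r = 0.968) and Hey1 that of Hes1 (0.937), while Notch3 went with Jag1 (0.907) and Jag1 with Hes1 (0.902). These r values rest on 4 populations and describe the libraries, which share their scaling.

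The start regions of these genes were read to show the letters that Notch's nuclear partners are known to bind. Promoter sequences of 280 bases, 250 before the transcription start and 30 from it on, came from RefSeq on GRCm38.p6 and matched 7 of the 10 genes: the 4 receptors, Jag1, Jag2 and Hey2. The RBPJ core was searched as TGGGAA or, on the other strand, TTCCCA, and the box of Hey and Hes repressors as CACGNG or CNCGTG, and the searched letters of the 2 motifs do not overlap each other in these windows. The promoters of Hey2, as the target with the largest change over Progenitor, and of Notch3 and Jag1, as the receptor and ligand that were highest in SMC2, are given on the gene's own strand (minus for all 3), with every match in capitals: RBPJ cores in Hey2 (chr10:30842754-30843033), Hey and Hes boxes in Notch3 (chr17:32166861-32167140) and Jag1 (chr2:137116491-137116770).
Hey2: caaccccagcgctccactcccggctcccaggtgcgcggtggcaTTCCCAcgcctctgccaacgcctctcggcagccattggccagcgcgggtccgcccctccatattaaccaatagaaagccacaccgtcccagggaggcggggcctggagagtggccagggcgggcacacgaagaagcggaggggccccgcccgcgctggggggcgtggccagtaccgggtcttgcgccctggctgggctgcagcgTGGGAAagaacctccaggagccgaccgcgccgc
Notch3: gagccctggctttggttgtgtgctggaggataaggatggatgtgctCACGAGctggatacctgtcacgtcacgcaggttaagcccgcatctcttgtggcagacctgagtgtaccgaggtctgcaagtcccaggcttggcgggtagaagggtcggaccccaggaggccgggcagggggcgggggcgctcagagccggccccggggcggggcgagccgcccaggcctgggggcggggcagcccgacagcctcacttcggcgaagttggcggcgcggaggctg
Jag1: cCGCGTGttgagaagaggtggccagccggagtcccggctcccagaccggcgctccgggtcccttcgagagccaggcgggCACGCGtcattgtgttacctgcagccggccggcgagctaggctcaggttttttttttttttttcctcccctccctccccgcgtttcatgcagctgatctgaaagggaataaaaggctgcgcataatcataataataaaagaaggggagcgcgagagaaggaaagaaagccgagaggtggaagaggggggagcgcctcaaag
Hey2 was the 1 gene of the 7 with an RBPJ core. It had 2 matches, at -207 to -202 from the start on the other strand and at -3 to 2 on its own. Among 32851 promoters of the same length, 23.8% held a match and 3.4% held 2 or more. The Hey and Hes box was found in 4 of the 7, beside 26.1% of all promoters: Notch3 had 1, at -204 to -199, Jag1 had 2, at -249 to -244 and -171 to -166, Notch2 had 1, at -42 to -37, and Jag2 had 1, at 18 to 23. Notch1, Notch4 and Hey2 held none in this window. A match describes the letters and is not a bound site, and no binding was measured here.

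Beyond these 10 genes, 65 other genes of the pathway were listed by role, of which 64 had a row and 61 were tested. The exceptions were Dll3, Hes2 and Hes7, which were too low to test, and Hes5, not analysed here. Of the 61, 43 differed among the populations (70.5%, beside 66.2% of all genes). Taking both directions together, the share called was near the background in each comparison: 15 higher and 15 lower in SMC2 minus Progenitor (49.2% beside 44.8% of all genes), 20 and 11 in SMC1 minus Progenitor (50.8% beside 48.3%), 15 and 1 in Intermediate minus Progenitor (26.2% beside 22.2%), 11 and 21 in SMC2 minus Intermediate (52.5% beside 44.6%), 10 and 12 in SMC1 minus Intermediate (36.1% beside 41.6%), and 10 and 14 in SMC2 minus SMC1 (39.3% beside 34.6%). By direction, Intermediate minus Progenitor had 24.6% higher and 1.64% lower, beside 12.7% and 9.46% of all genes, and the 1 lower gene was Dlk1. The split in this comparison moved with the scaling: 57.3% of the calls over all genes were higher with TMM factors and 39.2% with upper-quartile factors. SMC2 minus Intermediate had 18.0% higher and 34.4% lower, beside 21.4% and 23.2%. The genes named next are among the 3 with the smallest adjusted p among the populations in each list. Each is given with the comparison in which its own p before adjustment was smallest, passing over populations with 3 counts or fewer in all. For Dlk2, Hes3 and Nrarp, a comparison with a smaller p was passed over by this rule. Levels are means in CPM, for Nrarp also counts, and ± after a level is the SD over 3 libraries. After a log2 change, ± is its standard error. The counts of differing genes in each list stand beside the same 66.2% of all genes, and in lists this short they say nothing particular to a list.

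Of 5 tested Delta-like and other ligands, 4 differed. Dner, a non-classical ligand known from neurons, averaged 0.641 ± 0.397 CPM in SMC2, 1.24 ± 0.598 in SMC1, 59.7 ± 8.28 in Intermediate and 12.7 ± 3.49 in Progenitor, and SMC2 minus Intermediate was -6.57 ± 0.38 (adjusted p = 8.38e-11). Dlk1, a Delta-like protein known as a preadipocyte factor, averaged 28.8 ± 9.14 CPM in SMC2, 1.38 ± 1.29 in SMC1, 0.565 ± 0.185 in Intermediate and 4.43 ± 0.487 in Progenitor (SMC2 minus Intermediate 5.65 ± 0.50, adjusted p = 6.12e-08). Dlk2, its relative, stayed at means of 1.25 CPM or less (SMC2 minus SMC1 -2.50 ± 0.74, 0.0118), and this call was lost without SMC2 replicate 2 (0.0738) or SMC1 replicate 3 (0.0803). The classical ligand Dll4, singled out after its values were seen, averaged 2.73 CPM in SMC2, 5.16 in SMC1, 1.51 in Intermediate and 1.87 in Progenitor, and was called in SMC1 minus Intermediate (1.77, adjusted p = 0.0111) and SMC1 minus Progenitor (1.496, 0.0225). Among the ligases that prepare ligands for signalling, 3 of 4 differed. Neurl1b averaged 26.2 ± 5.80 CPM in SMC2, 3.16 ± 0.375 in SMC1, 8.23 ± 2.22 in Intermediate and 6.73 ± 1.66 in Progenitor (SMC2 minus SMC1 3.05 ± 0.26, adjusted p = 1.14e-08). Mib1 was higher in Intermediate than in Progenitor (0.83 ± 0.19, 0.00386) and also in SMC1 than in Progenitor (0.79, adjusted p = 0.00202). Mib2 was higher in SMC1 than in Progenitor (0.86 ± 0.18, 0.000673).

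Of the enzymes that add sugars to the receptors, 3 of 5 differed. Pofut1, which adds the fucose that ligand binding needs, averaged 15.2 ± 1.12 CPM in SMC2, 35.6 ± 6.42 in SMC1, 56.1 ± 4.63 in Intermediate and 41.6 ± 9.15 in Progenitor (SMC2 minus Intermediate -1.89 ± 0.19, adjusted p = 3.4e-08). Lfng, a Fringe enzyme that extends this fucose and shifts which ligands a receptor answers, averaged 1.77 ± 0.778 CPM in SMC2, 2.69 ± 0.993 in SMC1, 8.44 ± 1.96 in Intermediate and 10.4 ± 1.69 in Progenitor (SMC2 minus Progenitor -2.56 ± 0.33, 1.7e-06). Mfng, another Fringe, stayed at means of 2.47 CPM or less (SMC1 minus Intermediate 1.82 ± 0.48, 0.00409). Of 10 receptor proteases 8 differed, and SMC2 minus Intermediate had 1 higher and 5 lower, beside 21.4% and 23.2% of all genes. Named after its values were seen, the 1 higher was Aph1c, whose near-identical copy Aph1b makes its count uncertain. The gamma-secretase subunit Ncstn was lower in SMC2 than in Intermediate (-1.22 ± 0.20, adjusted p = 3.35e-05). Furin, which cuts the receptor on its way to the surface, was higher in SMC1 than in Progenitor (0.89 ± 0.20, 0.00112). Intermediate minus Progenitor had no receptor protease called, beside 22.2% of all genes, in a list of 10.

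The nuclear partners did not all follow Notch3. Rbpj, the DNA-binding factor itself, averaged 20.6 ± 1.72 CPM in SMC2, 48.8 ± 6.31 in SMC1, 27.1 ± 1.68 in Intermediate and 30.7 ± 3.72 in Progenitor, and was lower in SMC2 than in SMC1 (-1.25 ± 0.16, adjusted p = 2.75e-06). The Mastermind coactivators Maml2 and Maml3 went in opposite directions between the SMC populations. Maml2 averaged 17.1 ± 1.86 CPM in SMC2, 51.9 ± 8.91 in SMC1, 37.6 ± 2.89 in Intermediate and 20.5 ± 3.11 in Progenitor (SMC2 minus SMC1 -1.60 ± 0.17, 3.56e-07). Maml3 averaged 28.4 ± 5.996 CPM in SMC2, 6.55 ± 0.562 in SMC1, 17.8 ± 2.13 in Intermediate and 11.9 ± 1.36 in Progenitor (2.11 ± 0.19, 3.18e-08). In all, 6 of 9 genes of the nuclear complex and 8 of 13 corepressors differed. Of the corepressors, Tle4 was higher in SMC2 than in Intermediate (1.31 ± 0.19, adjusted p = 8.84e-06), Tle1 in SMC1 than in Progenitor (1.23 ± 0.17, 4.37e-06) and Ncor1 in SMC2 than in Progenitor (1.12 ± 0.17, 1.49e-05).

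Regulators of receptor turnover differed in 9 of 12. Dtx4, a Deltex ubiquitin ligase, averaged 6.73 ± 1.497 CPM in SMC2, 5.99 ± 1.65 in SMC1, 95.0 ± 12.3 in Intermediate and 45.0 ± 13.8 in Progenitor (SMC1 minus Intermediate -3.99 ± 0.25, adjusted p = 1.35e-10). Numbl, a relative of the Notch inhibitor Numb, averaged 13.1 ± 0.861 CPM in SMC2, 20.9 ± 3.06 in SMC1, 64.5 ± 9.15 in Intermediate and 56.4 ± 15.9 in Progenitor (SMC2 minus Intermediate -2.30 ± 0.20, 6.67e-09). Dtx1 averaged 11.2 ± 4.41 CPM in SMC2, 2.40 ± 0.514 in SMC1, 7.69 ± 1.14 in Intermediate and 2.32 ± 0.531 in Progenitor (SMC2 minus Progenitor 2.28 ± 0.30, 1.81e-06). Of 3 tested genes among the other Hes genes and Nrarp, 2 differed. Nrarp, a Notch target whose protein limits Notch signalling, had 209, 126 and 123 counts in the SMC2 libraries and 14, 5 and 2 in SMC1. Intermediate had 1, 1 and 3 counts and Progenitor 0, 1 and 0. The reads counted for it were almost all in SMC2, at 7.74 ± 1.73 CPM. However, 79.4% of its exon bases lie in a gene model of the opposite strand. How reads in shared bases were counted is not known, so these reads may not all be of Nrarp. The fitted SMC2 minus Intermediate change of 6.11 ± 0.60 (adjusted p = 3.28e-08) rests on very few Intermediate counts. Hes3 stayed at means of 0.840 CPM or less (SMC2 minus Intermediate -2.51 ± 0.87, 0.0228), and this call was lost without SMC2 replicate 1 (0.0778), SMC2 replicate 2 (0.0701) or Intermediate replicate 2 (0.133).

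**Figure D5:**
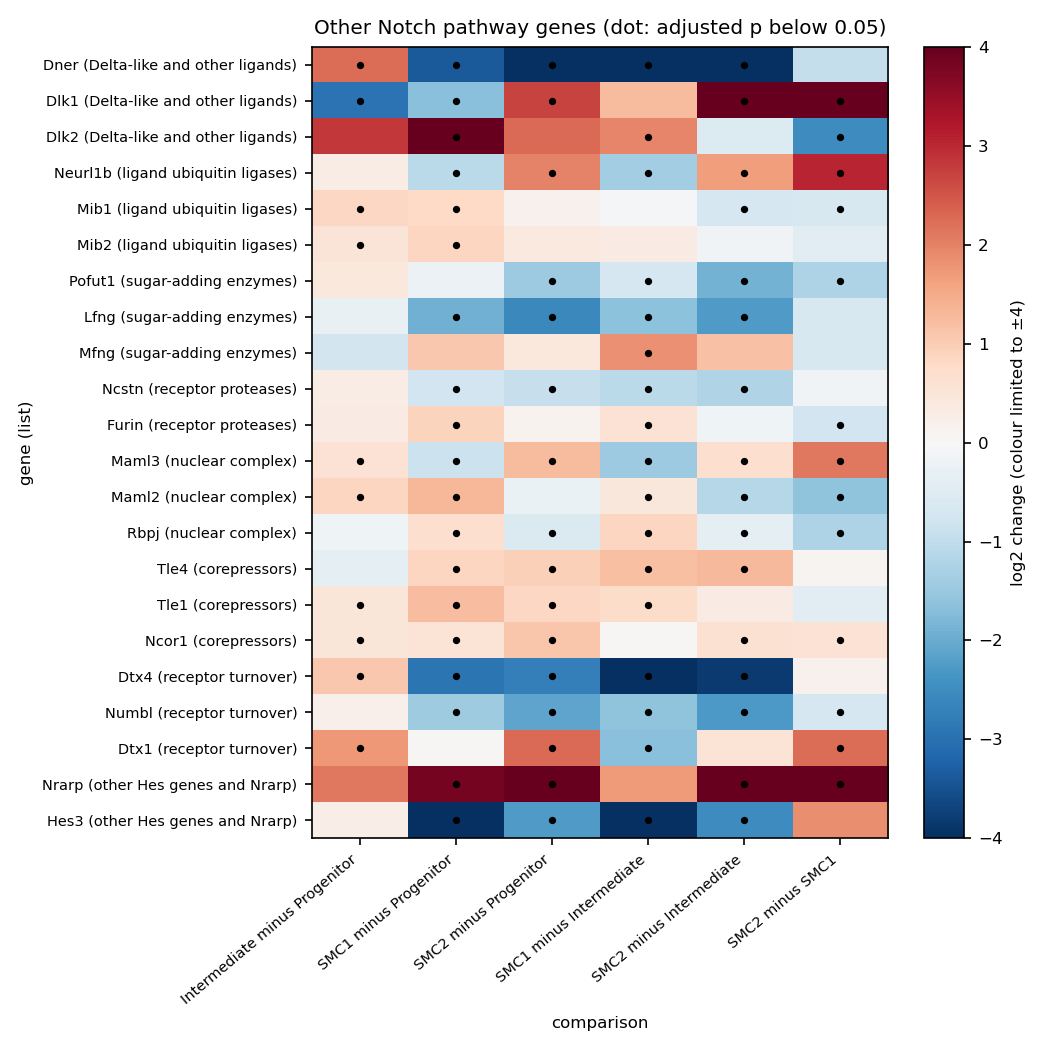
log2 change (colour, limited to 4 in either direction) of other Notch pathway genes (rows, with their list) in the 6 comparisons (columns). The rows are the genes named for the smallest adjusted p in their list. Dll4 and Aph1c, named after their values were seen, are not drawn. A dot marks an adjusted p below 0.05. Dlk1, Neurl1b, Maml3 and the reads counted for Nrarp, which shares 79.4% of its exon bases with a gene model of the opposite strand, are higher in SMC2 than in SMC1, and Maml2 and Rbpj are lower.

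Pearson r of log2 CPM over the 12 libraries compares patterns, not levels or sizes of change, and here rests on 4 populations. The genes of highest r with a Notch gene are listed. They were drawn from 8999 named genes that reached a mean of 4 log2 CPM in their highest population. For Notch3 they were Vps37b (r = 0.997), Trpv2 (0.997) and Acss1 (0.994). Hey2 was most like Fry (0.99), Cryab (0.987) and Tspan7 (0.987), and Heyl most like Tmem246 (0.978), Cryab (0.975) and Vamp2 (0.975), so Cryab, a small heat shock protein gene, stood in both sets. Hes1 was most like Frk, Slc25a3 and Mamdc2 (0.985 to 0.986). Jag1 was most like Plcl1 (0.987), Dlg1 (0.979) and Abr (0.978). The nearest to Notch1 were Ppp1r9a, Pcdh1 and Rgs6 (0.96 to 0.964), and to Notch2 Morc2a, Usp54 and Tacc1 (0.974 to 0.978). Notch4, Jag2 and Hey1 were below this level and were not compared.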

How the data were processed

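Poly(A) RNA was measured in 12 libraries, 3 per population, made with a SMART-Seq v4 kit for full-length transcripts, which leaves strand unmarked. Raw counts per gene were deposited as whole numbers, and STAR 2.5.2a, DESeq2 1.26.0 and build mm10 are listed in the submitters' processing notes. The counting program and its annotation are not given in the sources used here. The authors' normalized and regularized log tables were not used. Symbols came from the deposited table. Rows without one (12078) or with a date in its place (26) took the GENCODE M21 name of their identifier; 33323 rows matched and 29 kept no name. Coordinates and exon lengths come from the same annotation. The exon length of a gene counts every base in an exon of any of its annotated transcripts.

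Genes passing filterByExpr (19016) were tested in edgeR 4.0.16 (limma 3.58.1, R 4.3.3) with 1 mean per population over all 12 libraries, TMM scaling, robust dispersions, 8 residual degrees of freedom and a two-sided quasi-likelihood F test. P-values were adjusted over all genes tested by Benjamini-Hochberg, at 0.05. Standard errors are the log2 change over the square root of F. Libraries were scaled by TMM for CPM, and a prior count of 2 was added for log2 CPM. The code was tested on simulated data. Amplified fragments are not independent molecules, and libraries of a population differed by more than sampling noise (chi-square per degree of freedom at least 9.31).

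Same-numbered Intermediate and Progenitor libraries deviated together from their means (correlations 0.171, 0.191 and 0.170, all above 0.1). The labels do not say that these libraries are pairs, and the reported tests treat all libraries as unpaired. A replicate block was fitted as an alternative alone.

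The Notch genes, pathway lists, marker lists and tests were chosen with earlier results of these data known. The pathway genes named are the 3 of each list with the smallest adjusted p among the 4 populations. Each is given with its comparison of smallest p before adjustment, passing over populations with 3 counts or fewer in all. A gene that this rule names is not reported here. The alternatives were other scaling factors, no filter, DESeq2 1.42.0, the libraries of the compared populations alone, a replicate block, and each library left out.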

Additional observations from a re-analysis of the deposited data

How the results depend on the processing

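Of 38 called changes of the Notch genes, 32 kept their call and direction under all 18 alternatives and none reversed. The 6 that lost a call in at least 1 setting are those of Notch2, Jag1, Jag2 and Hey1 named above; Hey1 in SMC2 minus Intermediate was also lost without the filter (adjusted p = 0.0569), and Hey1 in Intermediate minus Progenitor with upper-quartile factors (0.0789), without the filter (0.076) and in the fit of those 6 libraries alone (0.0845). With upper-quartile factors, 3 Notch genes were called in Intermediate minus Progenitor, and 3 to 4 with 1 library left out, when 2771 (without Intermediate replicate 2) to 4227 of all genes were called. Sign changes occurred in uncalled changes alone. Notch2 in SMC2 minus Progenitor was -0.027 with median-of-ratios factors, -0.076 with upper-quartile factors, -0.076 without the filter and -0.019 in DESeq2. With upper-quartile factors, Notch1 in SMC1 minus Progenitor was -0.11, Notch4 in SMC2 minus Intermediate 0.049, Jag2 in SMC2 minus Intermediate 0.013 and Heyl in SMC2 minus SMC1 0.0079. With 1 library left out, log2 changes ranged from -0.23 to 0.10 for Hes1 in SMC1 minus Intermediate, from -0.33 to 0.065 for Heyl in SMC2 minus SMC1, from -0.0056 to 0.79, -0.57 to 0.21 and -0.13 to 0.58 for Jag2 in Intermediate minus Progenitor, SMC2 minus Intermediate and SMC2 minus Progenitor, from -0.089 to 0.33 for Notch1 in SMC1 minus Progenitor, from -0.21 to 0.16 for Notch2 in SMC2 minus Progenitor, and from -0.28 to 0.0042 and -0.52 to 0.14 for Notch4 in Intermediate minus Progenitor and SMC2 minus Intermediate. Uncalled changes that gained a call were Notch4 in SMC2 minus SMC1 without the filter (adjusted p = 0.022), SMC2 replicate 3 (0.0082), SMC1 replicate 2 (0.0246) or Intermediate replicate 1 (0.0478), Notch4 in SMC1 minus Intermediate without SMC2 replicate 1 (0.0497), SMC2 replicate 3 (0.0381) or SMC1 replicate 2 (0.0294), and Notch2 in SMC2 minus Intermediate without SMC2 replicate 1 (0.0431). A replicate block changed no call of a Notch gene (5, 6, 7, 6, 7 and 7 called) and called 4594, 9664, 8842, 8223, 8839 and 6945 genes. In comparisons other than Intermediate minus Progenitor, same-numbered libraries correlated at -0.018 to 0.346. The reported tests pair no libraries in any comparison. Upper-quartile factors moved the median of all genes to -0.08 in Intermediate minus Progenitor, -0.19 in SMC1 minus Progenitor and 0.11 in SMC2 minus SMC1, and the share of higher calls to 39.2% (57.3% with TMM) and 41.3% (52.3%) in the first 2 of these. Of the 23 changes of other pathway genes, all but those of Dlk2 and Hes3 kept their call wherever they were tested. The number of other pathway genes called in Intermediate minus Progenitor ran from 8 to 17. The cause of these shifts was not tested. Depth was not tested as a limit.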
